A study of Ovis aries with 6 samples.

Results

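Proliferation in sheep skin was examined through 45 genes of S phase and mitosis, taken by their symbols from the 28394 genes in the deposited tables. All 45 were present, and all 45 passed the filter on low counts, which kept 15320 genes. Of these, 15 act mainly in S phase, when DNA is copied, and 30 act mainly in mitosis, when the copied chromosomes are separated. The lowest count of a member was 84, for CCNE1 in sheep XW8, and the highest was 13416, for MKI67 in sheep 30034.

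A cell that divides passes from G1 to S phase under cyclin E and the E2F factors, copies its DNA with the MCM helicase and its partners, and then enters mitosis under cyclin B and CDK1. FOXM1 and other factors switch on the mitotic genes late in this sequence, and the anaphase-promoting complex destroys cyclins to end it. In skin the dividing cells are known mainly from the matrix of growing wool follicles, the basal epidermis and the outer rim of sebaceous glands.

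The study set Super Merino (SM), a fine-wool breed, beside Small Tail Han (STH), a coarse-wool breed, to ask how their skin differs. PolyA RNA from shaved skin behind the shoulder blade of 3 SM ewes (sheep 128, 30034 and 30126) and 3 STH ewes (sheep XW3, XW5 and XW8) was sequenced with 1 library for each animal. All 6 were 9 months old by the sample records. A younger age stands in the paper, whose methods place all ewes on one farm with the same feed and the sampling in autumn, when follicles are expected to be growing. Neither breed received a treatment. In whole skin, fewer dividing cells and less RNA of these genes in each cell cannot be told apart.

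The libraries held between 28870583 and 44645091 counts, so that 3 counts correspond to 0.0672 to 0.104 CPM (counts scaled to the size of the library), a floor that covers counting error only. KRT5, the keratin of basal keratinocytes, reached 2771 CPM per kilobase of exon, so that a defining marker of skin was abundant. The median absolute difference of log2 CPM between libraries, taken over all tested genes, lay between 0.209 and 0.233 for pairs of STH sheep. Sheep 30126 differed from the other libraries by 0.305 to 0.536, the upper end being the largest difference of any pair. Sheep 128 differed by 0.401 from 30126 and by 0.223 from 30034, and by 0.214, 0.245 and 0.191 from XW3, XW5 and XW8, so that 2 STH sheep were nearer to it than any SM sheep. The counts of members called, and the members that moved most, are given without each of these animals as well. Levels below are CPM after TMM normalization, log2 fold changes are SM over STH, and adjusted p values are those of edgeR's quasi-likelihood test with Benjamini-Hochberg adjustment over all 15320 genes. A gene passed when its adjusted p was under 0.05 and its fold change was beyond 1.5 in either direction.

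No cell cycle gene passed the test between the breeds, with 0 of 45 higher in SM and 0 of 45 lower by edgeR's quasi-likelihood test, where the background over all tested genes was also 0% in each direction. The paper, which ran an edgeR method in other software with the same thresholds, lists CENPE among its genes higher in STH. In the quasi-likelihood fit used here, unlike the paper's run, the edgeR adjusted p values of the 45 members lay between 0.240 and 0.986. The smallest of any gene in this fit was 0.0606. At an unadjusted p under 0.05, 12 members (26.7%) were higher in SM, where 7.21% of all tested genes were, and 2 members (4.44%) were lower, where 10.8% of all tested genes were. The breeds did not overlap in 15 members that were higher in SM (33.3%, against 12.3% of all genes) and in 1 that was lower (2.22%, against 13.3%). The share of members with a positive log2 fold change was 68.9%, or 31 of 45, against 51.4% of all genes, and this number lay between 29 and 34 under the other scalings and filters. The numbers at the unadjusted p depended on the animals in the fit. Without sheep XW5, 0 members were higher at an unadjusted p under 0.05 (3.13% of all genes) and 1 was lower (4.21% of all genes). Without sheep XW8 the numbers were 2 (4.8% of all genes) and 1 (7.67%), without sheep 30034 they were 5 (4.57%) and 1 (6.08%), and without sheep 30126 they were 5 (4.84%) and 1 (6.5%). Without sheep XW3 they were 14 (5.96%) and 2 (9.14%).

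The median log2 fold change was 0.23 over the 45 genes, with a range from -1.67 to 0.60, and 0.02 over all tested genes. For the 15 S phase genes the median was 0.36, and 12 of them were positive. For the 30 mitosis genes it was 0.16, and 19 were positive. At an unadjusted p under 0.05, 5 S phase genes were higher in SM and 0 lower. Of the mitosis genes 7 were higher and 2 lower. Over all tested genes 7.21% were higher and 10.8% lower. The difference between both classes was not tested.

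**Figure D1:**
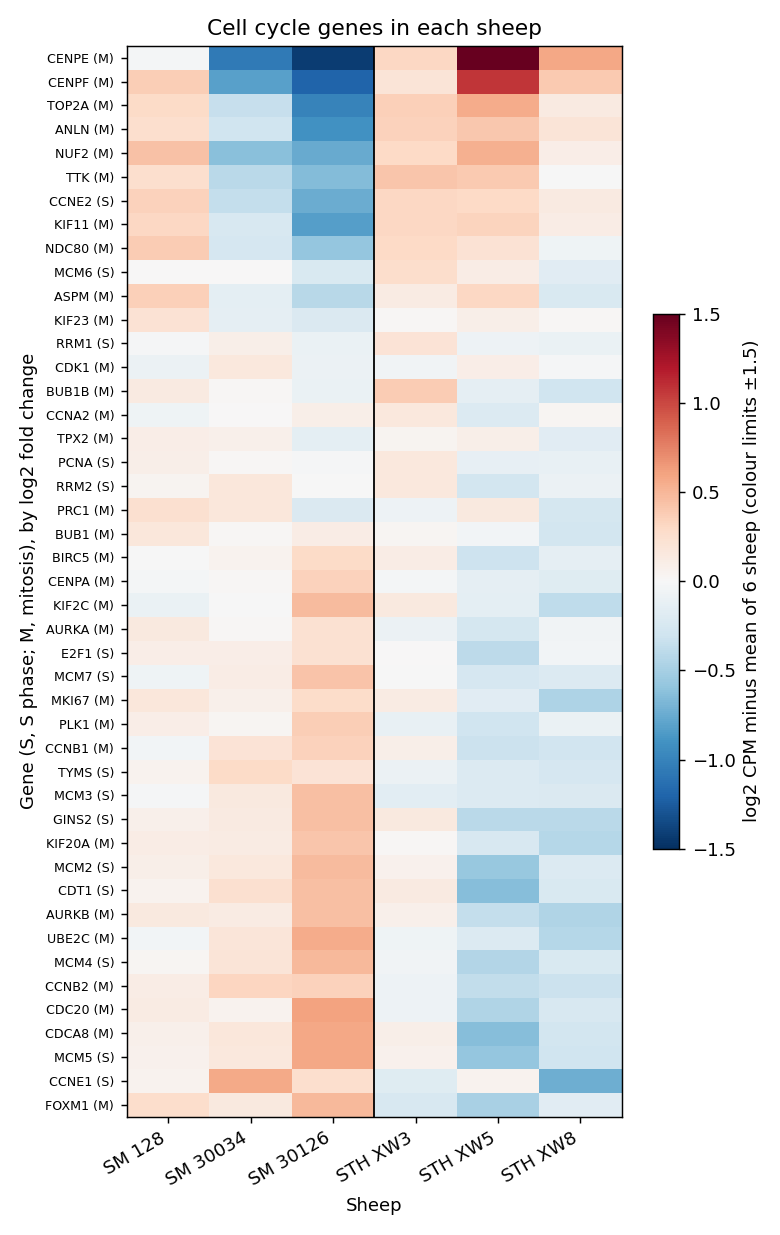
Each row is 1 of the 45 genes (S, S phase; M, mitosis) ordered by log2 fold change, each column 1 sheep, and the colour is log2 CPM minus the mean of the 6 sheep, with colour limits of ±1.5. Sheep 30126 has the lowest value in 12 genes of the upper rows and the highest in 22 genes of the lower rows, and sheep 128 resembles the STH sheep in the upper rows.

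The genes did not move as 1 block across the 6 animals. Sheep 30126 had the highest level of 22 members, all with a positive log2 fold change, and the lowest level of 12 members, all with a negative one. Sheep XW5 had the highest level of 6 members and the lowest of 17, and sheep XW8 the highest of 0 and the lowest of 15. The levels of all 45 genes summed to 2117 CPM in sheep 128, 1916 in 30034 and 1975 in 30126, and to 2116 CPM in XW3, 2041 in XW5 and 1765 in XW8. These sums overlapped between the breeds. MKI67 made up 11.5 to 17.3% of the sum and TOP2A 4.52 to 12.8%. The summed S phase genes reached 685, 735 and 800.0 CPM in the SM sheep and 714, 578 and 598 CPM in the STH sheep, and overlapped through sheep 128 and XW3. The summed mitosis genes, at 1432, 1181 and 1175 CPM in SM and 1402, 1462 and 1168 CPM in STH, overlapped fully.

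Across the 6 sheep, Pearson's r between the log2 CPM of members, whose points share libraries and depth, ranged from -0.98 to 0.998 with a median of 0.31 over 990 pairs. Within the S phase genes the median was 0.60 over 105 pairs, of which 21 were negative. Within the mitosis genes it was 0.11 over 435 pairs, of which 201 were negative. MCM5, a helicase subunit, and CDCA8, a subunit of the chromosomal passenger complex, had an r of 0.998, and MCM5 and MCM2 had 0.99. TOP2A, which untangles DNA, had an r of 0.99 with the contractile ring protein ANLN and of 0.99 with the spindle motor KIF11, but of -0.46 with MKI67. CENPE and CENPF, both kinetochore proteins, had an r of 0.97, and CENPE and MCM5 had -0.94. These pairs were picked after their values were seen, and over 6 animals of 2 breeds they are descriptions only.

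**Figure D2:**
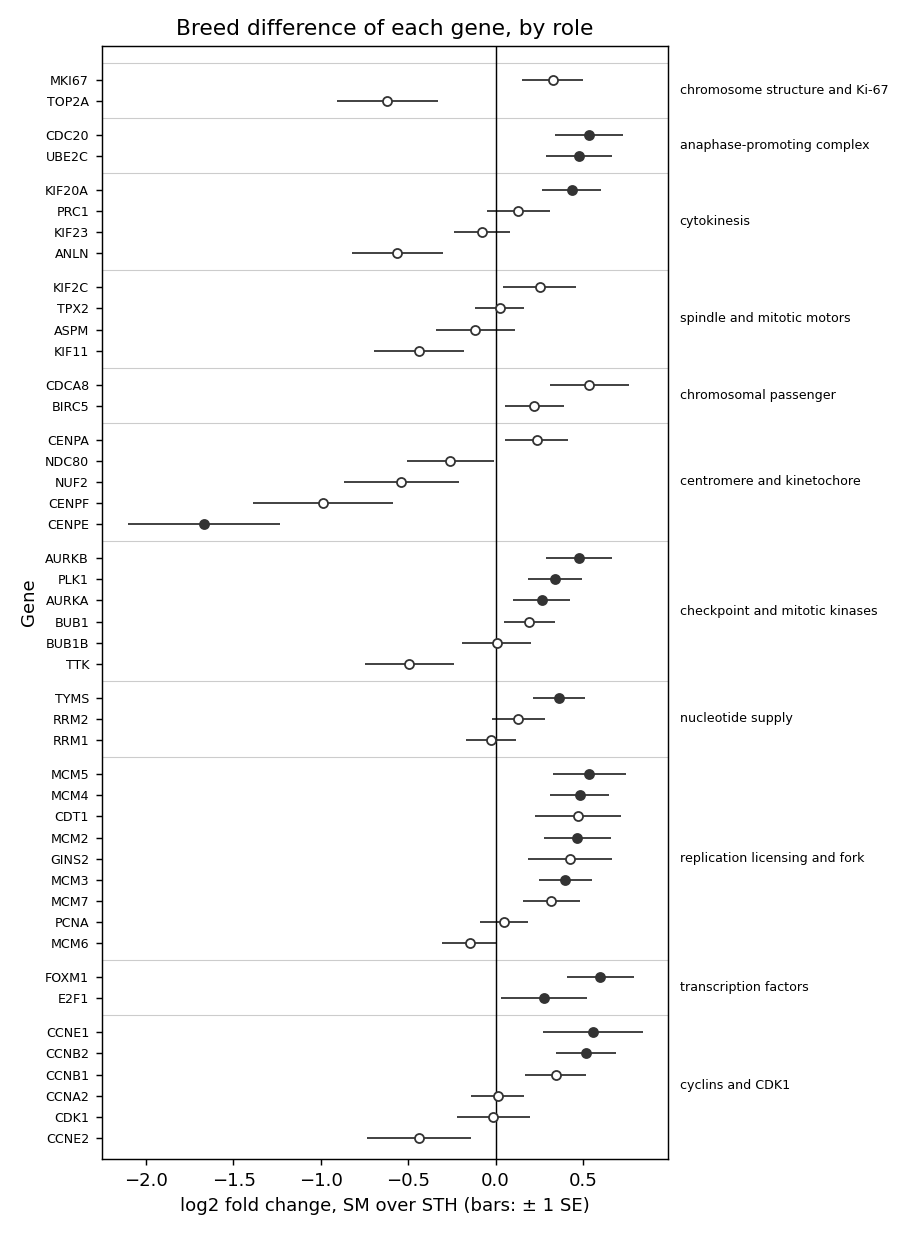
Points give the log2 fold change of each member (x axis, SM over STH) and bars ± 1 standard error of edgeR's quasi-likelihood fit on 3 sheep of each breed, with genes grouped by role. Filled points mark genes whose breeds do not overlap, 15 on the right and CENPE alone on the left, and the kinetochore genes CENPE and CENPF lie furthest left at -1.67 and -0.99.

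The cyclins carry the cycle from one phase to the next by activating CDKs. CCNB2, a mitotic cyclin on chromosome 7 from 48147120 to 48188840, was measured at 14.7, 16.9 and 17.3 CPM in SM (128, 30034 and 30126, an order kept below) and at 12.8, 10.5 and 10.8 CPM in STH (XW3, XW5 and XW8). Every SM sheep was above every STH sheep. Its log2 fold change was 0.52 ± 0.17 (SE, n = 3 and 3), with an edgeR adjusted p of 0.247. Part of this gene, 10863 of its 41721 bases, lies over MYO1E on the opposite strand, and whether counting used strand is not given in the sources used here. The other B-type cyclin, CCNB1, had a log2 fold change of 0.34, and its breeds overlapped. CCNA2, the cyclin of S phase and G2 and the most abundant of these genes per kilobase of exon at 12.0 CPM, stood at 25.4, 26.8 and 28.2 CPM in SM and 29.6, 23.1 and 27.0 CPM in STH. The STH sheep held both the highest and the lowest value, and the log2 fold change was 0.01 ± 0.15 (edgeR adjusted p = 0.968), with a sign that differed between scalings. CDK1, the kinase that drives entry into mitosis, was at -0.01 with a standard error of 0.21, and its sign also differed between scalings.

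Both E-type cyclins, which open S phase, were among the least abundant members per kilobase of exon and had opposite signs. CCNE1 was at 4.79, 6.84 and 5.53 CPM in SM and 4.09, 4.79 and 2.78 CPM in STH, so that every SM sheep was above every STH sheep, although sheep 128 and XW5 were equal at the digits shown. Its log2 fold change was 0.56 ± 0.28 (edgeR adjusted p = 0.314). CCNE2 was at 6.84, 4.23 and 3.24 CPM in SM and 6.71, 6.66 and 5.96 CPM in STH, where sheep 128 was the highest of all 6 and the remaining SM sheep were the lowest. For CCNE2 the log2 fold change was -0.44 ± 0.30 (edgeR adjusted p = 0.415). The r between these genes over the 6 sheep was -0.53.

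Of the transcription factors, FOXM1, which switches on G2 and mitosis genes, had the most positive log2 fold change of all 45 genes. FOXM1, on chromosome 3 from 210638657 to 210650710, was at 11.4, 10.5 and 13.3 CPM in SM sheep and 8.04, 6.78 and 8.44 CPM in STH sheep. The breeds did not overlap, with 11.7 ± 1.44 CPM (SD, n = 3) in SM and 7.75 ± 0.869 CPM in STH. That is a 1.51-fold higher mean level, a log2 fold change of 0.60 ± 0.19 and an edgeR adjusted p of 0.247. Without sheep 128 the log2 fold change was 0.62 with an edgeR adjusted p of 0.116. E2F1, the activator of S phase genes and the more abundant of both per kilobase of exon, was at 4.43, 4.45 and 4.87 CPM in SM and 4.18, 3.15 and 4.04 CPM in STH. Its breeds did not overlap either, but they were close, and the log2 fold change was 0.28 ± 0.25 (edgeR adjusted p = 0.523). E2F1 overlaps PXMP4 on the same strand over 5191 bases. PXMP4 held 347, 447 and 482 counts in SM and 228, 348 and 217 in STH. E2F1 held fewer in every sheep, with 134, 201 and 191 in SM and 129, 133 and 122 in STH. Part of the E2F1 counts is thus uncertain.

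The replication genes mostly had positive log2 fold changes, with 8 of 9 positive and a median of 0.42. At an unadjusted p under 0.05, 4 of 9 were higher in SM and 0 lower, beside 7.21 and 10.8% of all genes. MCM2 to MCM7 form the ring helicase that opens DNA, CDT1 loads it, GINS2 belongs to the moving helicase, and PCNA is the clamp that holds the polymerases. MCM7 had the highest level of all members per kilobase of exon, at 46.8 CPM. In the single sheep it was at 109, 123 and 153 CPM in SM and 114, 96.5 and 99.3 CPM in STH, where XW3 was above sheep 128. Its log2 fold change was 0.32 ± 0.16 (edgeR adjusted p = 0.314).

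MCM4, on chromosome 9 from 32295022 to 32305821, was at 63.3, 71.1 and 87.1 CPM in SM and 59.9, 45.9 and 52.9 CPM in STH. All SM sheep were above all STH sheep, with a log2 fold change of 0.48 ± 0.17 and an edgeR adjusted p of 0.252. MCM3, on chromosome 20 from 24413072 to 24429081, was at 67.1, 75.5 and 93.0 CPM in SM and 61.0, 59.0 and 58.5 CPM in STH. Its breeds did not overlap and its STH sheep lay close together, with 59.5 ± 1.34 CPM (SD, n = 3). The log2 fold change was 0.40 ± 0.15 (edgeR adjusted p = 0.256).

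MCM5 and MCM2 also did not overlap, with log2 fold changes of 0.54 and 0.47. In MCM5 the margin was narrow, since sheep 128 had 50.3 CPM and XW3 50.1 CPM, while XW5 had 32.0 CPM and 30126 had 72.0 CPM. KLF15, annotated over the whole of MCM2 on the opposite strand, held at most 112 counts in a sheep. CDT1 and GINS2 overlapped between the breeds, at 0.47 and 0.42. The sixth MCM subunit, MCM6, did not follow the others. It was at 64.5, 64.6 and 55.0 CPM in SM and 77.3, 69.3 and 57.2 CPM in STH, with a log2 fold change of -0.15 ± 0.16 (edgeR adjusted p = 0.590). The ratio of MCM6 to MCM5 counts within a library, which no scaling of library size can alter, was 1.28, 1.20 and 0.764 in SM and 1.54, 2.17 and 1.46 in STH. Differences linked to exon length can still alter it, since MCM6 has 4543 exon bases and MCM5 2509. With each sheep's trend on exon length removed, the log2 fold change was -0.01 for MCM6 and 0.56 for MCM5. PCNA was at 72.2, 68.7 and 67.4 CPM in SM and 76.0, 62.3 and 63.0 CPM in STH, with a log2 fold change of 0.05.

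**Figure D3:**
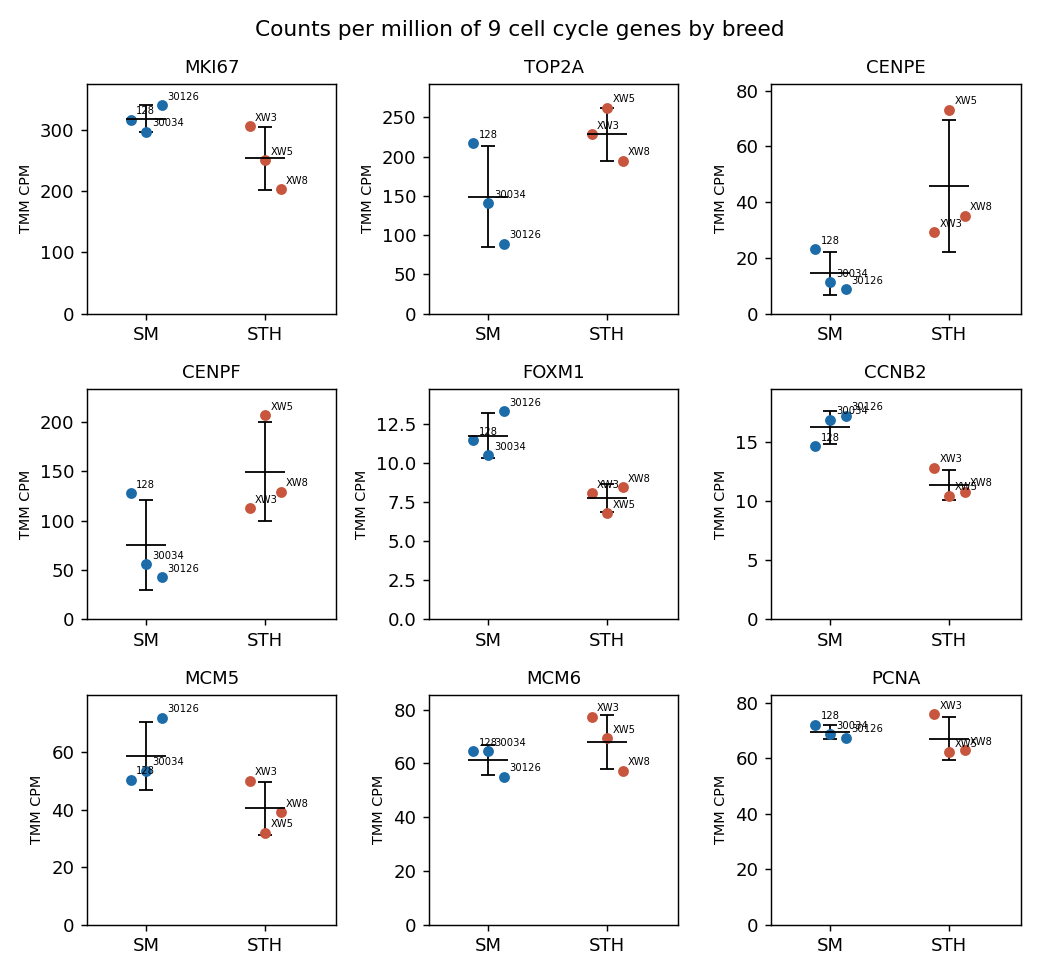
Each panel plots the CPM of 1 gene after TMM normalization in the 3 SM (blue) and 3 STH (red) sheep, with the mean (long bar) and ± 1 SD, and every y axis starts at 0. FOXM1 and CCNB2 separate the breeds upwards in SM and CENPE downwards, MCM5 separates them by 50.3 against 50.1 CPM at the nearest sheep, and MKI67, TOP2A, CENPF, MCM6 and PCNA overlap.

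The genes of nucleotide supply make the building blocks of DNA. RRM1, the large subunit of ribonucleotide reductase, was the most abundant of them per kilobase of exon at 31.2 CPM. It stood at 92.9, 99.9 and 88.3 CPM in SM and 109, 89.2 and 87.9 CPM in STH, which overlapped fully. The log2 fold change was -0.03 ± 0.14 (edgeR adjusted p = 0.924), with a sign that differed between scalings. RRM2, the small subunit of the same enzyme, had 0.13. TYMS, which makes thymidylate, was higher in SM at an unadjusted p under 0.05 with a log2 fold change of 0.36, and its SM sheep, at 21.3 to 25.1 CPM, were all above its STH sheep, at 17.3 to 19.4 CPM.

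Among the checkpoint and mitotic kinases 5 of 6 were positive. AURKB, the kinase that corrects attachments of chromosomes to the spindle, was the most abundant per kilobase of exon at 15.1 CPM. It was at 21.5, 21.2 and 26.7 CPM in SM and 20.4, 15.2 and 14.2 CPM in STH. The breeds did not overlap, and the log2 fold change was 0.48 ± 0.19 (edgeR adjusted p = 0.262). PLK1 and AURKA, kinases of spindle assembly, did not overlap either, with 0.34 and 0.26. BUB1 had 0.19, and BUB1B, a spindle checkpoint protein, had 0.01, with a sign that differed between scalings. TTK, the kinase that starts the spindle checkpoint, was the exception. TTK was at 17.1, 10.9 and 9.15 CPM in SM and 19.1, 18.8 and 14.3 CPM in STH, where sheep 128 was among the STH values and the other SM sheep were below all of them. The log2 fold change of TTK was -0.49 ± 0.25 (edgeR adjusted p = 0.316).

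The centromere and kinetochore genes, which tie chromosomes to spindle fibres, had the lowest median of any role group, at -0.54, with 4 of 5 negative. CENPE, a kinesin that carries chromosomes to the middle of the spindle, lies on chromosome 6 from 21713052 to 21791689. It was at 23.2, 11.3 and 8.82 CPM in SM and 29.2, 73.1 and 35.2 CPM in STH. All SM sheep were below all STH sheep, and XW5 was far above the other STH sheep. The means were 14.5 ± 7.68 CPM (SD, n = 3) in SM and 45.9 ± 23.8 CPM in STH, 3.19-fold higher in STH, with a log2 fold change of -1.67 ± 0.44 and an edgeR adjusted p of 0.240. CENPE was the only member to pass by another test on all 6 sheep. It passed by the likelihood ratio test of edgeR with an adjusted p of 0.0155, where 1.43% of all genes passed as lower in SM, by DESeq2 with an adjusted p of 0.00501, where 1.87% did, and by the exact test of edgeR, where 1.33% did. By limma-voom and by edgeR's newer quasi-likelihood dispersion 0 members passed. Without sheep XW5 its log2 fold change was -1.16 with an edgeR adjusted p of 0.627.

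CENPF, a large kinetochore protein on chromosome 12 from 66988113 to 67051424, was the most abundant of this group per kilobase of exon at 10.5 CPM. It was at 128, 55.9 and 42.9 CPM in SM and 113, 207 and 129 CPM in STH. Sheep 128 lay within the STH range, so that the breeds overlapped, and the log2 fold change was -0.99 ± 0.40 (edgeR adjusted p = 0.265). NUF2 and NDC80, partners in the complex that grips spindle fibres, had -0.54 and -0.26. In NUF2 sheep 128 was at 11.6 CPM and the other SM sheep at 5.51 and 5.04 CPM, against 9.17 to 12.4 CPM in STH. CENPA, the histone that marks the centromere, was the only positive one, at 0.23. The ratio of CENPE to CENPA counts within a library was 1.99, 0.936 and 0.582 in SM and 2.5, 6.71 and 3.36 in STH, which did not overlap. Such a ratio cancels library size, but not differences linked to exon length. The exons of CENPE hold 8589 bases and those of CENPA 1398.

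The passenger proteins accompany AURKB along the chromosomes. BIRC5, the more abundant of both per kilobase of exon at 10.2 CPM, was at 26.2, 27.2 and 31.9 CPM in SM and 28.4, 21.0 and 23.8 CPM in STH, and the breeds overlapped through XW3. The log2 fold change of BIRC5 was 0.22 ± 0.17 (edgeR adjusted p = 0.458). CDCA8 was higher in SM at an unadjusted p under 0.05 with 0.54, although XW3, at 19.4 CPM, was above sheep 128, at 19.2 CPM.

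The spindle and motor genes showed no common direction, with 2 of 4 positive. TPX2, which starts spindle fibres around chromosomes, had the highest level per kilobase of exon in this group at 8.97 CPM. It was at 76.9, 75.5 and 64.8 CPM in SM and 73.9, 75.9 and 63.8 CPM in STH, and these ranges were nearly the same. Its log2 fold change was 0.02 ± 0.14 (edgeR adjusted p = 0.930), with a sign that turned when sheep 128 was left out. KIF2C, which shortens spindle fibres, had 0.25, ASPM, a protein of the spindle poles, had -0.12, which turned to 0.17 with the trend on exon length removed, and KIF11, which pushes the poles apart, had -0.44.

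Cytokinesis, the final split of the cell, was represented by 4 genes with signs in both directions. KIF20A, the most abundant per kilobase of exon at 10.6 CPM, was at 35.0, 35.3 and 43.2 CPM in SM and 32.6, 27.3 and 24.0 CPM in STH. All SM sheep were above all STH sheep, and the log2 fold change was 0.44 ± 0.17 (edgeR adjusted p = 0.260). KIF20A shares 7788 of its 8432 bases with CDC23 on the opposite strand, so that part of its counts is uncertain. In all, 7 of the 45 members overlap another gene that held at least 10 counts in a sheep. ANLN, which organizes the contractile ring, lies on chromosome 4 from 60780744 to 60940875. It was at 51.0, 35.0 and 22.9 CPM in SM and 54.4, 56.9 and 49.2 CPM in STH, with sheep 128 inside the STH range. For ANLN the log2 fold change was -0.56 ± 0.26 (edgeR adjusted p = 0.286). PRC1 and KIF23, which bundle the fibres of the central spindle, had 0.13 and -0.08, and KIF23 turned to 0.06 with the trend on exon length removed.

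The 2 members placed in the anaphase-promoting complex group were higher in SM at an unadjusted p under 0.05, beside 7.21% of all genes. Neither overlapped between the breeds, beside 12.3% of all genes that were higher in SM without overlap. Other genes of that complex were not compared between the breeds here. UBE2C, the enzyme that places the first ubiquitin, stood at 36.3 CPM per kilobase of exon, below only MCM7 among all members. UBE2C was at 28.0, 32.7 and 42.2 CPM in SM and 27.5, 24.9 and 21.5 CPM in STH, a narrow separation between sheep 128 and XW3. The log2 fold change was 0.48 ± 0.19 (edgeR adjusted p = 0.260). CDC20, the activator that selects targets for destruction, lies on chromosome 1 from 17804941 to 17808915. It was at 22.4, 21.4 and 31.3 CPM in SM and 19.5, 15.0 and 17.4 CPM in STH. The difference was 0.53 ± 0.20 on the log2 scale (edgeR adjusted p = 0.255).

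MKI67 and TOP2A, the usual markers of dividing cells, pointed in opposite directions. MKI67, which encodes Ki-67, a protein that coats mitotic chromosomes, was at 317, 297 and 341 CPM in SM and 306, 251 and 204 CPM in STH. The breeds overlapped because XW3 was above sheep 30034, and the log2 fold change was 0.33 ± 0.17 (edgeR adjusted p = 0.324). TOP2A, on chromosome 11 from 40153826 to 40180113, was at 217, 140 and 89.2 CPM in SM and 229, 262 and 195 CPM in STH. Sheep 128 was within the STH range and the other SM sheep were below it, with a log2 fold change of -0.62 ± 0.29 (edgeR adjusted p = 0.291). The ratio of TOP2A to MKI67 counts within a library was 0.685, 0.473 and 0.262 in SM and 0.747, 1.05 and 0.955 in STH. For CENPF to MKI67 the ratio was 0.404, 0.188 and 0.126 in SM and 0.368, 0.828 and 0.635 in STH. All 4 ratios given here were chosen after the values were seen. Per kilobase of exon TOP2A, at 33.4 CPM, and MKI67, at 30.3 CPM, were among the most abundant of the 45, with MCM7, UBE2C, PCNA and RRM1, and the median level of the 45 was 8.88 CPM against 6.28 CPM over all tested genes.

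Leaving out sheep 128 changed which members passed. Since this SM sheep was picked for its likeness to STH sheep in these same libraries, its removal widens the gap between the breeds by construction, and the calls without it are no independent evidence. Over all genes 972 were then lower and 203 higher, where leaving out any other sheep gave at most 2 in a direction. Of the 45 genes, 5 were then lower in SM and passed both thresholds by edgeR's quasi-likelihood test (11.1%, against 6.39% of all genes), while 0 were higher (against 1.34%). With edgeR adjusted p values in parentheses, CENPE had a log2 fold change of -2.19 (0.0180), CENPF -1.60 (0.0172), TOP2A -0.99 (0.0342), ANLN -0.89 (0.0366) and NUF2 -1.02 (0.0401). All 5 are mitosis genes, and they act in the kinetochore, in chromosome structure and in cytokinesis. At an unadjusted p under 0.05 there were then 14 members higher in SM (31.1%, against 12.7% of all genes) and 9 lower (20%, against 17.6%). The median log2 fold change over the 45 genes was 0.28 without sheep 128. Among genes that did not pass, CCNE2 moved from -0.44 to -0.79, TTK from -0.49 to -0.80, KIF11 from -0.44 to -0.76, NDC80 from -0.26 to -0.57, ASPM from -0.12 to -0.36 and KIF23 from -0.08 to -0.22.

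Without sheep 30126, which took part in the largest difference between libraries, 0 members passed, the median was 0.19 and 34 of the 45 were positive. The size of 16 log2 fold changes then shrank by more than 1.5 times, and that of 5 grew by as much. FOXM1 had 0.51, CCNB2 0.49 and MCM4 0.36, while CENPE had -1.40, CENPF -0.69 and TOP2A -0.34.

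Exon length moved with these values. Over the 45 genes Spearman's rho between log2 fold change and exon length was -0.45, over the 30 mitosis genes -0.52, over the 15 S phase genes -0.06 and over all 15320 genes -0.30, which are descriptions across genes that are not independent. The 26 members at or below the median exon length of all genes, 3068.5 bases, had 21 positive values and a median log2 fold change of 0.35, and the 19 longer members had 0.01 with 10 positive. Over all tested genes, 62.4% of the shorter and 40.4% of the longer ones were positive. CENPE, CENPF, TOP2A, ANLN and TTK had exons of 8589, 10735, 5640, 7496 and 6558 bases. MKI67 had 9426 bases and NUF2 had 2070. With each sheep's trend on exon length removed, the median of the 45 was 0.25, beside 0.08 over all genes, 34 were positive (75.6%, against 56.9% of all genes), and 11 were higher and 2 lower at an unadjusted p under 0.05, against 10.3 and 9.34% of all genes. CENPE then had -1.43 and CENPF -0.75, while MKI67 had 0.63. Spearman's rho with exon length was then 0.006 over all genes. It was still -0.15 over the 45 members and -0.23 over the mitosis genes, and 0.05 over the S phase genes. The source of this remainder among the members was not tested. The part of exon length in the breed differences was not tested further.

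**Figure D4:**
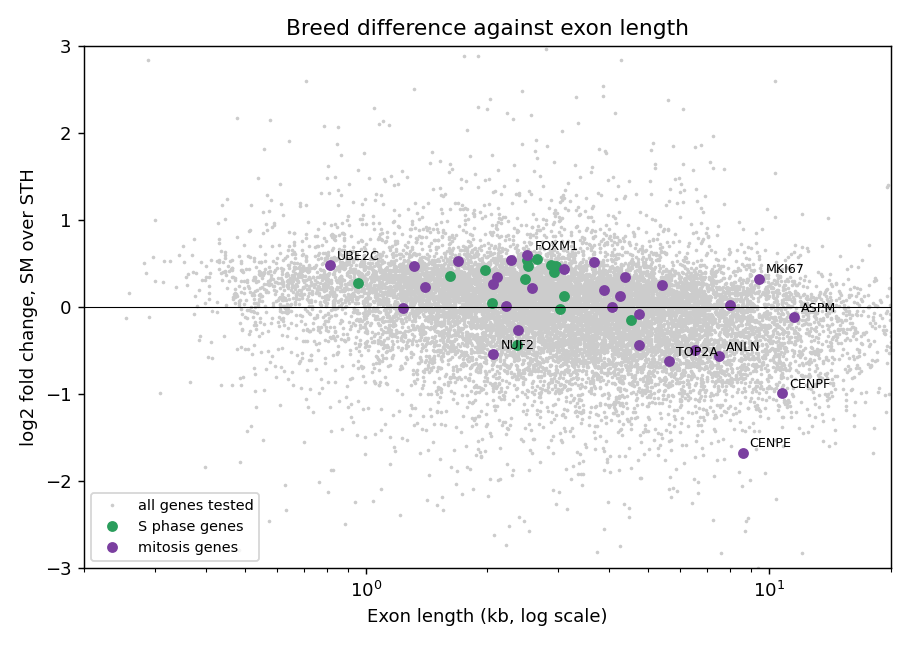
The log2 fold change of each gene (y axis, SM over STH) is plotted against exon length in kilobases (x axis, log scale) for all tested genes (grey), S phase members (green) and mitosis members (purple), and 112 tested genes fall outside the axes. Long members such as CENPF, at -0.99, lie lower than short ones such as UBE2C, at 0.48, while MKI67 is long and lies at 0.33.

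Of 115 other cell cycle genes listed by function, 111 were found and tested, and 0 passed both thresholds by edgeR's quasi-likelihood test. At an unadjusted p under 0.05, 16 were higher in SM and 11 lower, beside 7.21 and 10.8% of all genes, and their median log2 fold change was 0.10. The 20 regulators of G1 had a median of 0.16, with 2 higher, CCND2 at 0.50 and E2F7 at 0.47, and 2 lower, RB1, the brake on E2F, at -0.38 and CDK6, the partner of D-type cyclins, at -0.47. CCND1, the most abundant of them per kilobase of exon, had -0.15. The 6 measured CDK inhibitors had log2 fold changes between 0.02 and 0.38, with a median of 0.32 and only CDKN2C, at 0.38, below an unadjusted p of 0.05. CDKN1A, the most abundant inhibitor, had 0.30 with a standard error of 0.20. Of the 5 genes of the DREAM and MuvB complex, which holds cell cycle genes silent in resting cells, LIN9 was lower at -0.72 and RBBP4, the most abundant, had 0.07, which turned to -0.02 without sheep 30034.

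The 28 other replication genes had a median of 0.18. At an unadjusted p under 0.05, 8 were higher in SM and 2 lower, beside 7.21 and 10.8% of all genes. LIG1, which seals the copied strand, was at 43.3, 42.9 and 54.8 CPM in SM and 33.1, 31.6 and 31.7 CPM in STH. The breeds did not overlap, and the log2 fold change was 0.55 ± 0.15 (edgeR adjusted p = 0.240). POLD1, a subunit of the DNA polymerase delta, had 0.66, UHRF1, which helps copy DNA methylation, had 0.46 and DUT, the most abundant of this list per kilobase of exon, had 0.45. PRIM1 and POLA1, both of the primase complex that starts each new strand, were lower, at -0.68 and -0.44.

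The 52 other mitosis genes had a median of -0.09. At an unadjusted p under 0.05, 5 were higher in SM and 6 lower, near the 7.21 and 10.8% of all genes. HJURP, the chaperone of CENPA, had 0.63, KIFC1 0.49 and MYBL2, a factor that acts with FOXM1, 0.54. SGOL2, a protector of centromere cohesion, was at 23.8, 9.12 and 8.0 CPM in SM and 26.7, 47.6 and 28.6 CPM in STH, with no overlap and a log2 fold change of -1.34 ± 0.42 (edgeR adjusted p = 0.247). KIF20B had -1.08 and SMC4, a condensin subunit, -1.04. The paper lists SGOL2, KIF20B and SMC4 among its genes higher in STH. In SMC4 sheep 128 had 83.5 CPM, close to XW3 at 90.9 CPM, and the other SM sheep had 40.9 and 34.6 CPM. The most abundant gene of this list per kilobase of exon, BUB3, had 0.26. Without sheep 128, 14 of the 111 other cell cycle genes passed as lower in SM, where 6.39% of all genes did, and 0 as higher, where 1.34% did. SGOL2, KIF20B, SMC4 and PRIM1 were among the 14.

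**Figure D5:**
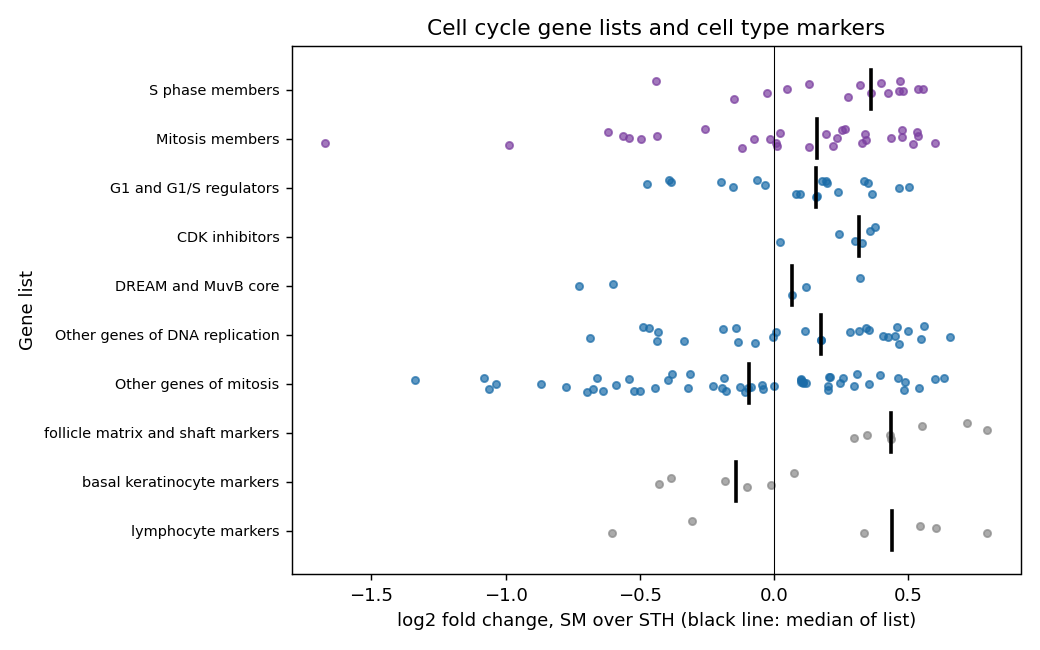
Each point is the log2 fold change of 1 gene (x axis, SM over STH) for the S phase and mitosis members (purple), the other cell cycle lists (blue) and 3 marker lists (grey), and the black line is the median of each list. S phase members have a median of 0.36, mitosis members 0.16, other mitosis genes -0.09 and follicle matrix and shaft markers 0.44.

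Markers of the cell types that divide in skin, and of others that it holds, also differed in level between the sheep. The follicle matrix and shaft markers, of which 7 of 9 were analysed and none was at 0, all had positive log2 fold changes with a median of 0.44, beside 51.4% positive over all genes. Of these markers DLX3 and KRT36 were higher in SM at an unadjusted p under 0.05, beside 7.21% of all genes. Their summed levels were 2357 to 4699.6 CPM in SM and 1662 to 2608 CPM in STH. Their mean log2 CPM was 7.24, 7.26 and 7.95 in SM and 7.24, 6.76 and 6.99 in STH, with sheep in the order used above. It was thus highest in sheep 30126 and lowest in XW5. The S phase members shared this, with means of 4.87, 4.94 and 5.01 in SM and 4.88, 4.57 and 4.61 in STH. The mitosis members did not, with 4.96, 4.74 and 4.73 in SM and 4.92, 4.85 and 4.69 in STH. Over all 45 genes the mean was highest in sheep 128, at 4.93, and lowest in XW8, at 4.67. The sebocyte markers were also highest in sheep 30126, at 6.27, but lowest in XW3, at 4.28. All 6 sebocyte markers were positive with a median of 1.21, and summed to 538 to 1011 CPM in SM and 291 to 399 CPM in STH.

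The basal keratinocyte markers, 6 of 7 analysed, had a median of -0.14 with 1 positive, and summed to 7158 to 8528 CPM in SM and 8297 to 11126 CPM in STH. The suprabasal keratinocyte markers, 6 of 7 analysed, had a median of -0.88. Of these, 4 were lower in SM at an unadjusted p under 0.05, beside 10.8% of all genes. They summed to 3513 to 4306 CPM in SM and 4439.7 to 8208 CPM in STH. For lymphocytes, which also divide, 6 markers were tested, with a median of 0.44. Of these, 2 were higher in SM at an unadjusted p under 0.05, beside 7.21% of all genes. Their summed levels were 52.7 to 85.4 CPM in SM and 63.5 to 79.2 CPM in STH. Medians of other lists were 0.53 for 4 endothelial markers, -0.65 for 5 smooth muscle markers, -0.18 for 6 fibroblast markers, -0.05 for 5 myeloid markers, -0.88 for 3 adipocyte markers and 0.24 for 3 melanocyte markers. The part of these cell types in the values of the cell cycle genes was not tested.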

How the data were processed

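A TruSeq kit was used for the skin RNA of 6 ewes, with paired-end reads and no pooling of animals. The authors checked reads with FastQC and mapped them with CLC Genomics Workbench to Oar_v4.0, and the deposited total count of a gene in a sheep is not normalized. The deposited RPKM is a count scaled to exon length and library size, and it served here only to recover exon lengths from counts, which gave whole bases within 0.05 for all 17823 genes with a count. The deposited TPM, and a deposited score that the authors call CPM, were not used. The supplement of the paper divides fragments into exon, intron and other classes, but which of them enter the total count, and whether strand was used, is not given in the sources used here. In every sheep the total count lay above the sum of both exon classes and below that sum with intron fragments added. Intron fragments thus did not all enter it. Their share of unique fragments was lowest in sheep 30126 and highest in sheep 128. The part of this share in the breed differences was not tested. Coordinates follow Oar_v4.0, as given by the files. Breeds come from the labels, and each library is a separate animal.

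The 15320 genes that reached 10 counts in 3 or more sheep were normalized by TMM and tested by the quasi-likelihood test of edgeR 4.0.16 in R 4.3.3, with breed as the only term, all 6 sheep in the fit and Benjamini-Hochberg adjustment over all genes. The standard error is the log2 fold change divided by the square root of F. Mean log2 CPM used a prior of 0.5. Scripts were tested on simulated counts. Alternatives were DESeq2 1.42.0, limma-voom (limma 3.58.1), the likelihood ratio and exact tests of edgeR, its newer dispersion, RLE, upper quartile and total count scaling, other filters (1 count in 1 sheep, 1 CPM in 3 sheep), other thresholds, a loess correction for exon length in every sheep (span 0.5) and each sheep left out.

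The 45 genes, the lists and the tests were chosen with earlier results of these data known. Per-sheep values with full statistics were given for the gene with the highest level per kilobase of exon in each role group and for the 5 with the smallest p in each direction. From other lists, up to 3 genes for each direction below an unadjusted p of 0.05 and the most abundant were named. CCNE1, CCNE2, MCM5, MCM6, PCNA and MKI67 were added after their values were seen. The promoter motif search that had been planned was not done here. CDKN2A, NCAPH, TACC3, CKS2, KRT31, KRT85, KRT14 and LOR were not analysed here, and LEP and MLANA were below the filter. With 3 animals in a group, no outlier was tested for.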

Additional observations from a re-analysis of the deposited data

How the results depend on the processing

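No paired analysis was possible because the labels name individual animals and give no number that an SM and an STH sheep share. Of the 45 genes, 37 kept their sign under all 18 alternatives run for each gene, and 8 changed sign, none with a log2 fold change beyond 0.12. With upper quartile scaling CDK1 had 0.022 and RRM1 0.0085. With total counts CCNA2 had -0.0115 and BUB1B -0.0073, and with the filter of 1 CPM these had -6e-04 and -0.0028. With the length trend removed RRM1 had 0.0281, ASPM 0.1688 and KIF23 0.0642. The likelihood ratio test without sheep 128, added after seeing the data, gave CDK1 0.0297, BUB1B -0.0547 and TPX2 -0.0212. With single sheep left out CDK1 ranged from -0.1098 to 0.0417, CCNA2 from -0.081 to 0.0954, PCNA from -0.002 to 0.1473, RRM1 from -0.0845 to 0.0798, BUB1B from -0.1274 to 0.2316, TPX2 from -0.0494 to 0.1124, ASPM from -0.3623 to 0.0583, KIF23 from -0.217 to 0.0229 and RBBP4 from -0.0209 to 0.1625.

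Members lower in SM past both thresholds numbered 0, and 0 to 5 with single sheep left out. They numbered 1 by DESeq2, 1 by the likelihood ratio test and 1 by the exact test. The likelihood ratio test without sheep 128 gave 7 (15.6%, against 11.1% of all genes). That fit also gave 1 higher, UBE2C (2.22%, against 3.53% of all genes). Members lower at an unadjusted p under 0.05 numbered 2. By DESeq2, the likelihood ratio test and the exact test they numbered 4 each (8.89%, against 12.4, 12 and 11.7% of all genes). They numbered 5 by limma-voom (11.1%, against 13.4%) and 1 with total counts (2.22%, against 8.2%). With single sheep left out they numbered 1 to 9, and the likelihood ratio test without sheep 128 gave 9 (20%, against 18.3%). Those higher ranged from 0 to 14 with single sheep left out. Members without overlap ranged from 15 to 28 higher and from 1 to 10 lower. The 28 arose without sheep XW3 (62.2%, against 20.4% of all genes). The 10 arose without sheep 128 (22.2%, against 25.1% of all genes). The cause of these changes was not tested. The median log2 fold change of the 45 stayed between 0.19 and 0.29, and no scaling moved the median of all genes by over 0.1. Whether depth or the spread between 3 sheep of a breed limited the calls was not tested.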
